A study of Mus musculus with 6 samples.

Results

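The MHC class II presentation genes described here are the 7 genes Ciita, Cd74, H2-Aa, H2-Ab1, H2-Eb1, H2-DMa and H2-DMb1, taken by name from the 29374 genes with any estimated read. All 7 passed the filter on low counts that left 16656 genes to test. RNA had been sequenced from CD11b+Gr1+ splenocytes, myeloid cells sorted from the spleens of leukemic mice that carried the Mll-AF9 fusion oncogene, a knockin allele that gives rise to acute myeloid leukemia. The 3 Rpl22+/+ libraries and the 3 Rpl22-/- libraries shared this oncogene and the tissue, the spleen, and differed by homozygous loss of Rpl22, a protein of the large ribosomal subunit. One mouse identifier is given per genotype in the study, and it is not stated if replicates were separate animals, so that p-values measure the spread between these libraries, which may be technical. The comparison asked how loss of Rpl22 altered transcription in these leukemias.

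MHC class II molecules display peptides from endosomes to CD4+ T cells. An alpha and a beta chain pair in the endoplasmic reticulum with the invariant chain, encoded by Cd74, which fills the groove and carries the complex to endosomes, where proteases trim it to the CLIP fragment and H2-DM exchanges CLIP for peptide. Ciita is the coactivator on which transcription of these genes depends. It does not bind DNA itself but docks on factors (the RFX complex, CREB and NF-Y) held at a module of X and Y boxes before each gene. B cells and dendritic cells carry class II constitutively, macrophages and monocytes acquire it on exposure to interferon-gamma, and neutrophils carry little.

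Letters like those of this module were searched in the RefSeq promoter windows (GRCm38.p6, 250 bases before to 50 after each start). Of the 11 class II genes looked up, 8 had a window. Windows were searched on both strands for GNAAC followed, after a gap of 15 to 35 bases, by GATTGG, the inverted CCAAT of the Y box. This pattern was chosen after seeing the windows and, here called the module, was found in 6 of the 8 genes, against 1.21% of all 32851 windows, while the Y box alone was found in 16.1% of windows. The module was found in 3 of the 4 members with a window. The sequences below are shown because they hold the letters searched, the whole module in these 3 members and in 3 other genes of the locus and the Y box alone in H2-DMb2, 5′ to 3′ on the strand of the gene, with the X half-site and the Y box in capitals. The genes that are members come first.
H2-Aa: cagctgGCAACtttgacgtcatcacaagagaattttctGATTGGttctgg
H2-Eb1: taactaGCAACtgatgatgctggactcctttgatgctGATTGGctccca
H2-DMb1: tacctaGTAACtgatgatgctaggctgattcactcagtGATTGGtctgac
H2-Oa: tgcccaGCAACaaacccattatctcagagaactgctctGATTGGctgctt
H2-Ob: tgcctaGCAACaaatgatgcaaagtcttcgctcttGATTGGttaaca
H2-Eb2: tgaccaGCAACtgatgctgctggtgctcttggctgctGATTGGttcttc
H2-DMb2: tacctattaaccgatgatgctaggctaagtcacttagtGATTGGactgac

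The stretches lie at chr17:34287861-34287910 (minus strand) for H2-Aa, and on the plus strand at chr17:34305770-34305818 for H2-Eb1, chr17:34153091-34153140 for H2-DMb1, chr17:34092297-34092346 for H2-Oa, chr17:34238812-34238858 for H2-Ob, chr17:34325537-34325585 for H2-Eb2 and chr17:34145120-34145169 for H2-DMb2. The Y box began 44 to 101 bases before the start, and the X half-site began 29 to 32 bases before the Y box in the 6 genes. H2-DMb2 held the Y box only, and so did 1 of the 2 windows of H2-DMa, the other of which held neither pattern. Ciita, Cd74 and H2-Ab1 were not in the window table. A match in these letters is a description and not a measured binding site.

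The libraries held 35828500 to 102866127 estimated reads, the fewest in Rpl22-/- replicate 1. Rpl22, the targeted gene, stood at 148, 235 and 152 CPM (reads scaled to the TMM-adjusted library size) in Rpl22+/+ and at 58.3, 89.9 and 73.5 in Rpl22-/-, a log2 fold change of −1.27 ± 0.25 (SE, n = 3 and 3; edgeR quasi-likelihood test, adjusted p = 0.0106). The sort antigens were present, with Ly6c2, an antigen of the Gr1 antibody, at 1677 to 3302 TPM (transcript levels scaled for length and to a common total). Itgam, which encodes CD11b, fell from 492 to 562 TPM in Rpl22+/+ to 245 to 328 TPM in Rpl22-/- (log2 fold change −1.02; edgeR adjusted p = 0.00482) and passed in all 6 omissions of a library. Ly6g, the other Gr1 antigen and a neutrophil marker, fell from 236 to 259 TPM in Rpl22+/+ to 18.8 to 27.8 TPM in Rpl22-/- (log2 fold change −3.49; edgeR adjusted p = 9.70e-05). The median log2 fold change over all genes tested was 0.07, and 0.19 without a composition factor.

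All 7 class II genes were lower in Rpl22-/- than in Rpl22+/+, at 50.8% to 65.3% of the Rpl22+/+ level by the fitted fold changes, while 45.8% of all genes tested had a negative log2 fold change. The median log2 fold change of the 7 was −0.75, and 15.7% of all genes tested lay below that value. A gene was called where the adjusted p was under 0.05 and the log2 fold change exceeded 1 in size. By edgeR 0 of the 7 were called, against 8.54% of all genes called lower. DESeq2 called 0 of the 7 and limma-voom 1 (H2-Aa), against 1521 and 1407 of all 16656 genes called lower. At an adjusted p under 0.05 without regard to size, 1 of the 7 passed (Ciita), against 13.8% of all genes that passed in that direction. At an unadjusted p under 0.05, 6 of 7 passed, against 19.0% of all genes in that direction. DESeq2 passed 5 of the 7 at any size (16.6% of all genes), limma-voom 2 of 7 (13.8% of all genes) and limma on log2(TPM + 1) 4 of 7 (12.8% of all genes). With the replicate number as a block, 7 of 7 passed at any size, against 16.1% of all genes lower at that threshold. The groups did not overlap in CPM for 6 of the 7, which held for 22.2% of all genes in that direction, and in TPM for 7 of 7, which held for 18.6% of all genes.

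Ciita, the coactivator (chr16:10297923-10346282 on GRCm39, plus strand), was measured at 95.8, 113 and 86.8 CPM in Rpl22+/+ and at 43.8, 69.4 and 56.6 CPM in Rpl22-/-. Every Rpl22-/- library lay below every Rpl22+/+ library. The means were 98.6 ± 13.4 and 56.6 ± 12.8 CPM (SD, n = 3 each), and the log2 fold change was −0.80 ± 0.20 (SE; edgeR adjusted p = 0.0274). This was the only member that passed in the fit without a block. It no longer passed without Rpl22+/+ replicate 1 or 3 or without Rpl22-/- replicate 1 or 3 (highest adjusted p in edgeR = 0.0974), and the log2 fold change over the omissions of single libraries ranged from −0.98 to −0.64.

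Of the classical chains, the I-A alpha chain and the I-E beta chain differed by the larger amounts. H2-Aa, the alpha chain of I-A (chr17:34501718-34506797, minus strand), was at 406, 581 and 355 CPM in Rpl22+/+ and at 150, 294 and 237 CPM in Rpl22-/-. The log2 fold change of −0.98 ± 0.30 was the largest of the 7, with an edgeR adjusted p of 0.0504 without the block and 0.0126 with it. H2-Eb1, the beta chain of I-E (chr17:34524841-34535648, plus strand), was at 323, 490 and 285 CPM in Rpl22+/+ and at 136, 220 and 222 CPM in Rpl22-/-. The log2 fold change was −0.93 ± 0.28 (edgeR adjusted p = 0.0502, and 0.0206 with the block). For both genes the highest Rpl22-/- library lay below the lowest Rpl22+/+ library.

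H2-Ab1, the beta chain that pairs with H2-Aa (chr17:34476663-34488393, plus strand), was at 435, 614 and 365 CPM in Rpl22+/+ and at 191, 377 and 316 CPM in Rpl22-/-. Here the groups overlapped in CPM, since Rpl22-/- replicate 2 lay above Rpl22+/+ replicate 3. In TPM they did not overlap, at 620, 632 and 504 against 272, 463 and 425. The log2 fold change of −0.68 ± 0.30 did not pass (edgeR adjusted p = 0.151) and passed narrowly with the block (adjusted p = 0.0490).

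Cd74, the invariant chain and the member with the highest level (chr18:60936920-60945724, plus strand), was at 1299, 1881 and 1143 CPM in Rpl22+/+ and at 581, 1052 and 1001 CPM in Rpl22-/-. The Rpl22-/- libraries were all lower, but replicates 2 and 3 came close to Rpl22+/+ replicate 3. The log2 fold change of −0.71 ± 0.29 did not pass (edgeR adjusted p = 0.122), and with the block the adjusted p was 0.0471.

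The chains of H2-DM, the peptide exchange factor, were lower by a similar extent. H2-DMa (chr17:34338515-34358075, plus strand) was at 68.2, 123 and 73.3 CPM in Rpl22+/+ and at 39.2, 62.2 and 55.2 CPM in Rpl22-/-, a log2 fold change of −0.75 ± 0.28 (edgeR adjusted p = 0.0933, and 0.0167 with the block). H2-DMb1 (chr17:34372046-34379204, plus strand) was at 52.4, 82.1 and 53.4 CPM in Rpl22+/+ and at 32.3, 46.4 and 43.9 CPM in Rpl22-/-, a log2 fold change of −0.62 ± 0.23 (edgeR adjusted p = 0.0979, and 0.0289 with the block). Neither gene overlapped between the groups. H2-DMb1 has a near-identical neighbor, H2-DMb2, with which reads could be shared, and the sum of both genes changed by −0.71 (adjusted p = 0.0827).

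**Figure D1:**
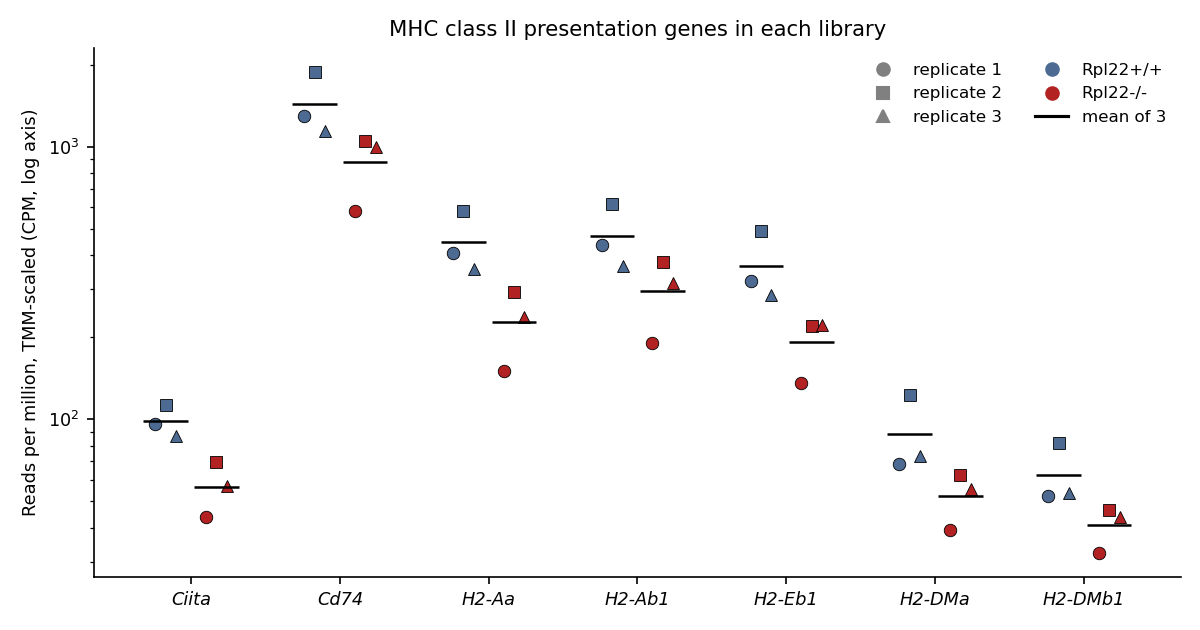
CPM on a log axis for the 7 class II genes in each library, with circles, squares and triangles for replicates 1, 2 and 3, Rpl22+/+ in blue, Rpl22-/- in red and the mean of 3 as a bar. For all 7 genes Rpl22+/+ replicate 2 is the highest library and Rpl22-/- replicate 1 the lowest, and H2-Ab1 is the gene whose groups overlap.

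The size of the difference rested in part on 2 libraries. On the centred log2 CPM averaged over the 7 genes, Rpl22+/+ replicates 1 to 3 stood at 0.25, 0.80 and 0.13 and Rpl22-/- replicates 1 to 3 at −0.85, −0.08 and −0.25. Rpl22+/+ replicate 2 was thus the highest and Rpl22-/- replicate 1, the library with the fewest reads, the lowest. Without Rpl22-/- replicate 1 the log2 fold change of Cd74 was −0.49 and that of H2-Ab1 was −0.44. Without both of these libraries, an omission chosen after seeing the data, the log2 fold changes were −0.55 for Ciita, −0.54 for H2-Aa, −0.48 for H2-Eb1, −0.29 for H2-DMa, −0.27 for Cd74, −0.25 for H2-DMb1 and −0.22 for H2-Ab1. All 7 stayed negative, and 3 of 7 (Ciita, H2-Aa and H2-Eb1) passed at an adjusted p under 0.05, against 22.8% of all genes lower at that threshold in the same fit. The part of depth in the difference was not tested.

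The members varied as a unit across libraries. Over the 6 libraries the log2 CPM of the 21 pairs of members correlated at r = 0.926 to 0.998, a description over libraries that include both genotypes. Ciita followed the other members least closely (r = 0.962 with their mean) and H2-Aa most closely (r = 0.993). Among the 13192 other genes whose mean reached 50 counts, the 5 whose log2 CPM correlated best with the mean of the members were Mzb1 (r = 0.999), H2-M3 (r = 0.998), H2-DMb2 (r = 0.997), Ramp3 (r = 0.996) and 2310009B15Rik (r = 0.995). Mzb1, which encodes a chaperone of immunoglobulin assembly in B cells and plasma cells, was at 40.7, 66.5 and 34.5 CPM in Rpl22+/+ and at 14.0, 30.5 and 25.0 CPM in Rpl22-/- (log2 fold change −1.02 ± 0.35; edgeR adjusted p = 0.0751, and 0.0170 with the block). H2-M3, a nonclassical class I gene on chromosome 17, ranked the libraries in the same order over a smaller range, from 18.5 CPM in Rpl22-/- replicate 1 to 31.6 CPM in Rpl22+/+ replicate 2. Mzb1 and H2-M3 were picked for their likeness to the members over both genotypes, so their lower levels in Rpl22-/- are not a separate result.

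On the length-scaled TPM scale the order of the members was the same in both genotypes. In Rpl22+/+ Cd74 stood at 1636 ± 199 TPM (SD, n = 3), followed by H2-Ab1 at 585 ± 70.8, H2-Aa at 547 ± 72.1 and H2-Eb1 at 501 ± 74.7, then H2-DMa at 107 ± 19.9, H2-DMb1 at 64.8 ± 5.92 and Ciita at 23.0 ± 1.78. In Rpl22-/- the levels were 1056 ± 260 TPM for Cd74, 387 ± 101 for H2-Ab1, 295 ± 76.8 for H2-Aa, 282 ± 62.3 for H2-Eb1, 70.0 ± 11.8 for H2-DMa, 47.0 ± 4.89 for H2-DMb1 and 14.5 ± 2.03 for Ciita. The ranges of the 3 classical chains overlapped over libraries in either genotype, although H2-Aa lay below H2-Ab1 within each of the 6 libraries, whereas the steps to Cd74, H2-DMa, H2-DMb1 and Ciita left no overlap between libraries. Summed over the 7 genes, the level was 3008 to 3866 TPM in Rpl22+/+ and 1562 to 2457 TPM in Rpl22-/-, a ratio of means of 0.621.

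Ratios between members within a library do not depend on how libraries were scaled. The log2 ratio of H2-Aa to H2-Ab1, the chains of the I-A heterodimer, was −0.16, −0.04 and −0.09 in Rpl22+/+ and −0.37, −0.36 and −0.44 in Rpl22-/-. The alpha chain was thus lower relative to its partner in every Rpl22-/- library, by −0.29 on the log2 scale (exact two-sided permutation test p = 0.1, the smallest that 3 against 3 allows; adjusted over 7 such tests, 0.175). The log2 ratio of Cd74 to H2-Aa was 1.59, 1.56 and 1.59 in Rpl22+/+ and 1.84, 1.72 and 1.97 in Rpl22-/-, higher by 0.26 with no overlap (exact permutation p = 0.1; adjusted, 0.175). The log2 ratio of H2-DMa to H2-DMb1 was 0.55, 0.85 and 0.71 in Rpl22+/+ and 0.45, 0.68 and 0.57 in Rpl22-/-, values that overlapped (exact permutation p = 0.3; adjusted, 0.35). Between libraries of the same replicate number the differences were −0.11, −0.17 and −0.14, all negative. Within such pairs each of the 3 ratios differed in the same direction in 3 of 3 (exact two-sided sign-flip p = 0.25 for each, the smallest that 3 pairs allow). For the ratios whose groups did not overlap, any pairing of the libraries would give this, so the pairs add nothing there.

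Ciita is transcribed from alternative promoters, and its transcripts in the annotation begin at 3 places. In background terms, the most upstream is used in dendritic cells and macrophages, the middle one in B cells and plasmacytoid dendritic cells, and the downstream one after interferon-gamma. Transcripts with the middle first exon, 8.12 to 8.22 kb downstream of the most upstream start, held 89.7%, 90.7% and 90.1% of the Ciita reads in Rpl22+/+ and 88.8%, 89.8% and 90.2% in Rpl22-/- (exact permutation p = 0.5). These were Ciita-201, with 1078 coding codons, and the noncoding Ciita-202. The upstream group (Ciita-205, Ciita-206 and Ciita-207) held 6.93%, 7.42% and 7.74% in Rpl22+/+ and 5.19%, 6.43% and 6.46% in Rpl22-/-, without overlap (exact permutation p = 0.1; adjusted, 0.175). Most of its reads were assigned to Ciita-207, a retained-intron form, at 5.35%, 4.41% and 5.89% in Rpl22+/+ and 3.95%, 5.17% and 5.84% in Rpl22-/-, values that overlapped. Of the coding transcripts of that start, Ciita-206 held no reads and Ciita-205 held 1.58%, 3.02% and 1.85% in Rpl22+/+ and 1.24%, 1.26% and 0.614% in Rpl22-/-. The groups did not overlap in the minor coding form, which was looked at after the values were seen and was not tested. The downstream group (Ciita-203, Ciita-204 and Ciita-208), which starts at 9.69 to 9.72 kb, held 3.41%, 1.89% and 2.17% in Rpl22+/+ and 6.04%, 3.82% and 3.38% in Rpl22-/-, values that overlapped (exact permutation p = 0.2; adjusted, 0.28). Within the pairs of a replicate number it was higher in Rpl22-/- by 2.63, 1.93 and 1.21 percentage points (exact sign-flip p = 0.25, the smallest possible). The difference of 1.92 percentage points was 1.11 without Rpl22-/- replicate 1 and 4.86 when shares were taken of TPM, and that of the middle group, −0.58, was −0.19 and −2.79. The upstream difference, −1.34, was −0.92 and −2.07. The bulk of Ciita reads thus came from the middle start in both genotypes.

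Cd74 is made in a short form and in a long form that carries an extra exon encoding a thyroglobulin domain, an inhibitor of cathepsin L. Among the reads of both coding forms, the long form (Cd74-202, 9 exons and 279 codons against 8 exons and 215 codons in Cd74-201) took 11.4%, 11.0% and 11.2% in Rpl22+/+ and 15%, 13.8% and 15.2% in Rpl22-/-. The share was higher in each Rpl22-/- library than in any Rpl22+/+ library. The means were 11.2% ± 0.18 and 14.7% ± 0.73 (SD, n = 3 each), a difference of 3.47 percentage points (exact permutation p = 0.1; adjusted over 7 tests, 0.175). It ranged from 3.22 to 3.89 percentage points over the omissions of single libraries.

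**Figure D2:**
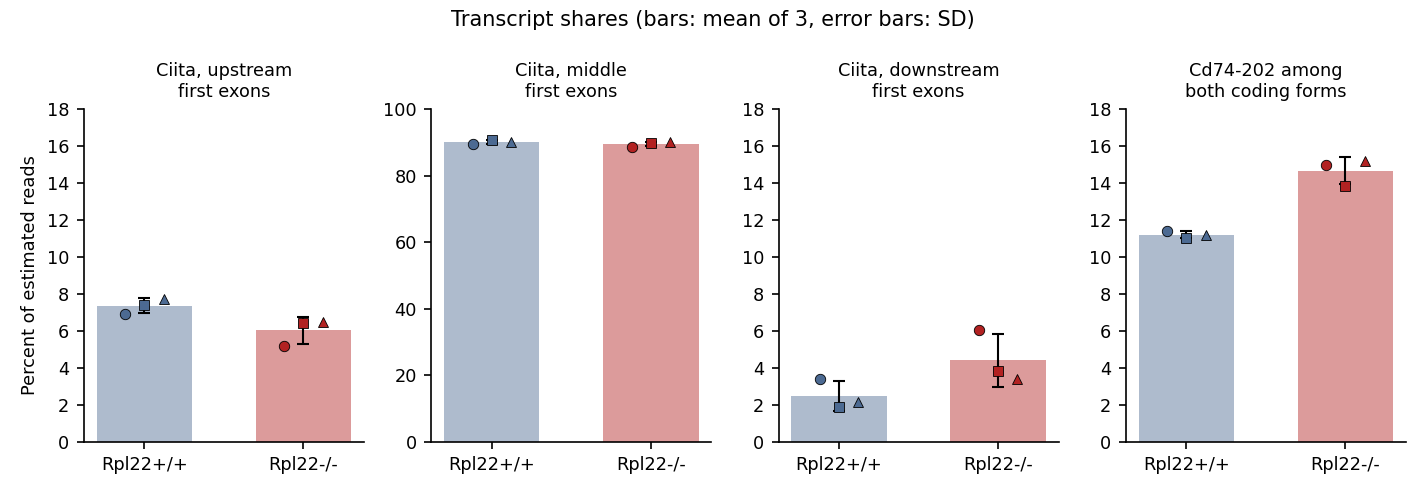
Percent of estimated reads assigned to 3 groups of Ciita transcripts by first exon and to the long form of Cd74 among both coding forms, as bars of the mean of 3 with SD and 1 point per library (circle, square and triangle for replicates 1, 2 and 3; the axis of the middle group runs to 100). The Cd74 points of Rpl22-/- (13.8% to 15.2%) lie above those of Rpl22+/+ (11.0% to 11.4%), while the middle first exon of Ciita holds 88.8% to 90.7% in every library.

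Of the H2-Eb1 reads, 62.4% to 66.3% were assigned to H2-Eb1-205, annotated as a target of nonsense-mediated decay with 92 codons, 9.0% to 12.1% to the coding H2-Eb1-203, and 19.1% to 21.5% to H2-Eb1-204, with a retained intron. Of the H2-DMa reads, 85.5% to 90.1% were assigned to H2-DMa-205, a transcript with 261 codons. The shares of these 4 forms overlapped between the genotypes. Among the minor forms, H2-Eb1-202, with a retained intron, held 1.10% to 1.38% in Rpl22+/+ and 0% to 0.913% in Rpl22-/-, and H2-DMa-203 held 0% to 0.0853% and 0.241% to 0.577%, without overlap. These minor forms were singled out after their values were seen, and the differences were not tested.

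Outside the 7 genes, the other genes of the class II locus that were tested had negative log2 fold changes, of −0.83 to −0.71. Of 5 listed, 4 passed the filter, and their median log2 fold change was −0.78. H2-Ob, a chain of the H2-DO inhibitor of H2-DM, was at 97.4, 67.4 and 72.9 CPM in Rpl22+/+ and at 40.5, 49.6 and 47.7 CPM in Rpl22-/- (−0.79 ± 0.18; edgeR adjusted p = 0.0193). In TPM its groups overlapped, since Rpl22+/+ replicate 2, at 43.8, lay below Rpl22-/- replicates 1 and 3, at 43.9 and 45.4. H2-Eb2, a second E beta gene with low levels, fell by 0.83 on the log2 scale (adjusted p = 0.0332). H2-DMb2, the highest of the list in TPM, changed by −0.78 (adjusted p = 0.0797) and H2-Oa, the partner of H2-Ob, by −0.71 (adjusted p = 0.116). Thus 2 of 4 passed at any size, against 13.8% of all genes lower, and 4 of 4 with the block, against 16.1%. Without Rpl22-/- replicate 1, Rpl22-/- replicate 3, Rpl22+/+ replicate 1 or Rpl22+/+ replicate 3 neither of the 2 passed, and H2-Ob did not without Rpl22-/- replicate 2 (log2 fold changes over the single omissions of −0.93 to −0.62 for H2-Ob and −1.04 to −0.65 for H2-Eb2). H2-Ea, which is not transcribed in the C57BL/6 strain, reached at most 0.0432 TPM.

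The DNA-bound factors through which Ciita acts had log2 fold changes of both signs, from −0.24 to 0.44. Of Rfx5, Rfxap, Rfxank, Nfya, Nfyb, Nfyc and Creb1, 0 of 7 passed by edgeR (13.8% of all genes lower and 13.7% higher). By DESeq2 (16.6% and 14.9%) and limma-voom (13.8% lower) it was also 0 of 7. By limma on log2(TPM + 1) 1 of 7 (Nfyc) passed higher (19.3% of all genes higher), and 1 of 7 was higher at an unadjusted p under 0.05 (20.0% of all genes). Without Rpl22+/+ replicate 2, Nfyc (0.58; edgeR adjusted p = 0.00648) and Rfx5 (0.43; adjusted p = 0.0292) passed higher and Creb1 lower (−0.49; adjusted p = 0.0215), against 20.7% of all genes higher and 19.3% lower in that fit, and 0 of 7 passed under each other single omission. The median log2 fold change was −0.10. Nfyc, the highest in TPM, was at 53.3, 81.4 and 56.9 CPM in Rpl22+/+ and at 81.9, 87.8 and 84.4 CPM in Rpl22-/- (0.41 ± 0.19; edgeR adjusted p = 0.156). Rfx5, the DNA-binding subunit of RFX, was at 26.9, 28.9 and 26.2 CPM in Rpl22+/+ and at 41.4, 36.7 and 33.0 CPM in Rpl22-/- (0.44 ± 0.14; adjusted p = 0.0550).

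Genes of the interferon-gamma route to Ciita moved in both directions. Ifngr2, the signaling chain of the receptor, fell from 84.9, 128 and 95.9 CPM in Rpl22+/+ to 39.3, 51.2 and 46.0 CPM in Rpl22-/- (−1.18 ± 0.20; edgeR adjusted p = 0.00593). It passed with each library left out in turn. Ifngr1, the ligand-binding chain, rose from 190, 241 and 205 CPM to 345, 368 and 287 CPM (0.65 ± 0.16; adjusted p = 0.0259). Irf2 fell by 0.74 (adjusted p = 0.0117) and Jak1 by 0.40 on the log2 scale (adjusted p = 0.0499, and 0.0599 with the block). Ifngr1 did not pass without Rpl22+/+ replicate 1 or 3 or Rpl22-/- replicate 1, Irf2 not without Rpl22-/- replicate 3, and Jak1 passed in 1 of the 6 omissions of a library, that of Rpl22+/+ replicate 2. Irf1 (0.03), Jak2 (−0.03) and Socs1 (−0.17) did not pass. In all, 3 of 8 genes passed lower (2 with the block) and 1 higher, against 13.8% and 13.7% of all genes (16.1% lower with the block), and the median was −0.12. Of the regulators of Ciita in myeloid and B cells, 0 of 4 passed by edgeR (13.8% of all genes lower and 13.7% higher). By DESeq2 (16.6% and 14.9%), by limma-voom (13.8% lower) and at an unadjusted p under 0.05 (19.0% and 20.0%) it was also 0 of 4. By limma on log2(TPM + 1) 1 of 4 (Spi1) passed lower, against 12.8% of all genes. Their log2 fold changes ran from −0.50 for Irf8 to −0.18 for Irf4, with −0.47 for Spi1 (adjusted p = 0.183), which encodes PU.1.

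Endosomal processing genes divided into a lower group and a group that did not pass. Ifi30, the thiol reductase of endosomes, fell from 284, 459 and 328 CPM in Rpl22+/+ to 99.3, 157 and 153 CPM in Rpl22-/- (−1.39 ± 0.26; edgeR adjusted p = 0.00899), and passed with each library left out. Ctss, the protease that cleaves the invariant chain in B cells and dendritic cells, fell from 240, 344 and 287 CPM to 89.3, 159 and 141 CPM (−1.16 ± 0.25; adjusted p = 0.0160). Lgmn, an asparagine endopeptidase, fell by 1.10 on the log2 scale (adjusted p = 0.0332). Sppl2a, the intramembrane protease that removes the last fragment of the invariant chain, fell from 115, 114 and 117 CPM to 62.2, 71.8 and 63.3 CPM (−0.81 ± 0.12; adjusted p = 0.00401). Cst3, the highest in TPM, stood at −0.03, and Ctsb, Ctsd, Ctsz and Ctsl at 0.05, 0.16, 0.13 and 0.30, none of which passed. Over the 9 genes, 4 passed lower, against 13.8% of all genes, and 0 higher, against 13.7%, and the median was −0.03. Ctss was not called without Rpl22+/+ replicate 3, Rpl22-/- replicate 1 or Rpl22-/- replicate 3, and Lgmn not without any of these or Rpl22+/+ replicate 2.

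Marchf8, a ubiquitin ligase that removes class II from the surface, fell by 0.73 on the log2 scale (adjusted p = 0.0108). Its relative Marchf1 was at 65.1, 25.7 and 68.3 CPM in Rpl22+/+ and at 27.3, 23.7 and 26.4 CPM in Rpl22-/-, so that Rpl22+/+ replicate 2 lay among the Rpl22-/- libraries (−1.04 ± 0.35; adjusted p = 0.0714, and 0.0442 with the block). Of the costimulatory genes, Cd86 fell by 0.87 (adjusted p = 0.0260), and Cd40 and Cd80 had log2 fold changes of −0.70 (adjusted p = 0.0787, and 0.0241 with the block) and −0.75 (adjusted p = 0.177). With Rpl22-/- replicate 3 omitted, the adjusted p of Marchf8 was 0.0598, and Cd86 passed in 1 of the 6 omissions, that of Rpl22+/+ replicate 2.

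Class I presentation genes had log2 fold changes from −0.08 to 0.56. Of 9 genes, 0 passed by edgeR in either direction, against 13.8% of all genes lower and 13.7% higher. At an unadjusted p under 0.05, 2 were higher, against 20.0% of all genes. DESeq2 passed 1 higher, against 14.9%, and limma on log2(TPM + 1) passed 4 higher, against 19.3%. Without Rpl22+/+ replicate 2, edgeR passed 4 of 9 higher (H2-K1, Tap1, Tap2 and Psmb9, with log2 fold changes of 0.48 to 0.71), against 20.7% of all genes in that fit. B2m, the light chain, was at 1441, 1251 and 1441 CPM in Rpl22+/+ and at 1632, 2090 and 1689 CPM in Rpl22-/- (0.39 ± 0.17; edgeR adjusted p = 0.134). H2-K1, a heavy chain, had a log2 fold change of 0.56 (adjusted p = 0.0806) and passed with the block (adjusted p = 0.0297), as did 17.7% of all genes in that direction. The list median was 0.31. Summed over the 9 genes, the level was 6321 to 6780 TPM in Rpl22+/+ and 8701 to 9326 TPM in Rpl22-/-. Of the 47 tested genes in the 8 lists of related genes, from the other class II locus genes to class I presentation, 4 were called lower (Ifngr2, Ifi30, Ctss and Lgmn), against 8.54% of all genes, and 0 higher, against 8.93%.

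**Figure D3:**
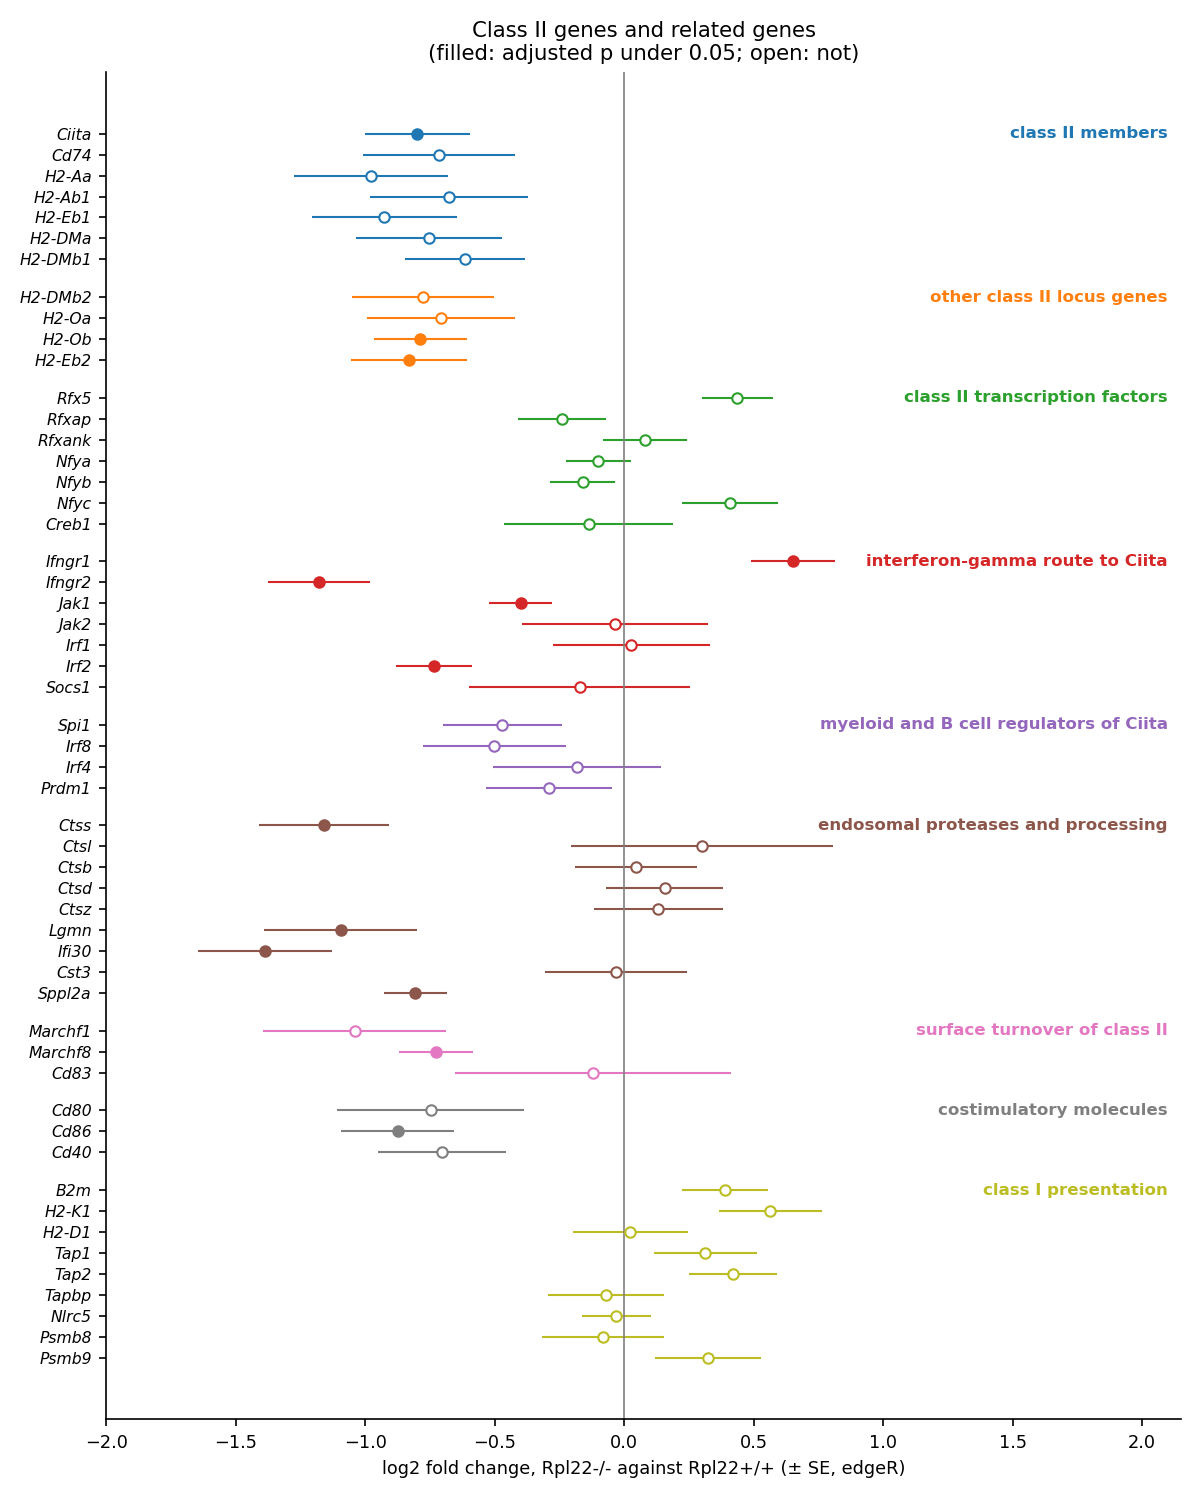
Log2 fold change of Rpl22-/- against Rpl22+/+ with its SE (edgeR) for the 7 class II genes and for related genes by list, filled where the adjusted p was under 0.05. The 7 class II genes and the 4 other genes of the locus lie between −0.98 and −0.62, the DNA-bound factors between −0.24 and 0.44, and the class I genes between −0.08 and 0.56.

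Markers of cells that carry class II, or that a CD11b+Gr1+ gate could hold, also differed between the genotypes. The cells had been purified by flow cytometry for CD11b and Gr1, a gate that should remove most B cells, T cells and erythroid cells. In bulk samples, fewer cells of a type and less RNA per cell cannot be told apart. Of 12 B cell markers, 10 had negative log2 fold changes (median −0.52), and 3 passed lower and 1 higher (3 and 2 with the block), against 13.8% and 13.7% of all genes (16.1% and 17.7% with the block). Pax5 fell by 0.81 (edgeR adjusted p = 0.0232), Cd22 by 0.57 (adjusted p = 0.0472, and 0.0586 with the block) and Ighd by 1.97 (adjusted p = 0.000523), and Cr2 rose by 1.77 (adjusted p = 0.0401). Cd79a had −0.53 (adjusted p = 0.218). Ighm, the highest in TPM, was at 1136, 1574 and 985 CPM in Rpl22+/+ and at 1515, 2768 and 2464 CPM in Rpl22-/- (0.87 ± 0.29; adjusted p = 0.0652, and 0.0268 with the block). The summed level of the list was therefore 1467 to 1795 TPM in Rpl22+/+ and 1927 to 2956 TPM in Rpl22-/-, a ratio of means of 1.55. Without Ighm it was 573 to 740 TPM and 394 to 512 TPM, a ratio of 0.735. The ratio for the class II genes was 0.621. Ighd passed in each of the 6 omissions of a library, Cr2 in 2, and Pax5 and Cd22 in 1, that of Rpl22+/+ replicate 2. No B cell marker was at 0. The part of B cells in the class II difference was not tested.

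Of 10 dendritic cell markers, 2 passed lower, Flt3 (−1.06; edgeR adjusted p = 0.0108) and Cd209a (−1.56; adjusted p = 0.0271), against 13.8% of all genes, and 0 higher, against 13.7%. The defining markers Xcr1 and Zbtb46 were near 0, at no more than 0.211 and 0.517 TPM. Itgax, the highest in TPM, had a log2 fold change of 0.36 (adjusted p = 0.123), and the summed level overlapped, at 34.9 to 42.3 TPM in Rpl22+/+ and 31.4 to 43.9 TPM in Rpl22-/-. Of 9 macrophage markers, 5 passed higher (C1qa, C1qb, C1qc, Mertk and Spic, by 1.11 to 1.45 on the log2 scale) and 2 lower (Adgre1, −1.31, and Csf1r, −1.08), against 13.7% of all genes higher and 13.8% lower. Of the 5 higher genes, Mertk and Spic reached no more than 0.383 and 1.32 TPM, and the C1q genes no more than 12.9 TPM. The summed level of the list, most of it Csf1r, was 186 to 274 TPM in Rpl22+/+ and 106 to 157 TPM in Rpl22-/-. Of 6 monocyte markers, 2 passed lower (Ccr2, −1.42, and Csf1r), against 13.8% of all genes, with summed levels of 2206 to 2734 TPM and 2813 to 3576 TPM, most of it Ly6c2, whose log2 fold change of 0.51 had an adjusted p of 0.180, and of 0.0347 with the block. Flt3 passed in each omission of a library, Adgre1 and C1qa in 5 of 6, Spic in 4, Csf1r in 3, C1qb in 2, and Cd209a, C1qc, Mertk and Ccr2 in 1, that of Rpl22+/+ replicate 2. None of the 3 lists held a marker at 0. The part of these cells in the class II difference was not tested.

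All 7 T cell markers passed lower (median −1.52), against 13.8% of all genes, with summed levels of 58.0 to 73.6 TPM in Rpl22+/+ and 20.0 to 23.9 TPM in Rpl22-/-. Trac, the highest of them, fell by 1.71 (edgeR adjusted p = 0.00108). Of 6 erythroid markers, 5 passed higher, against 13.7% of all genes, led in level by Hbb-bs (3.05 ± 0.33; adjusted p = 0.00116), with summed levels of 147 to 172 TPM and 916 to 1679 TPM, and Klf1 had no reads in 2 Rpl22-/- libraries. Mature cells of neither lineage carry class II in mice, and the ratios of the summed means were 0.347 and 8.78, beside 0.621 for the class II genes. Each T cell marker passed in all 6 omissions of a library, as did the erythroid markers other than Epor, which passed in 2.

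**Figure D4:**
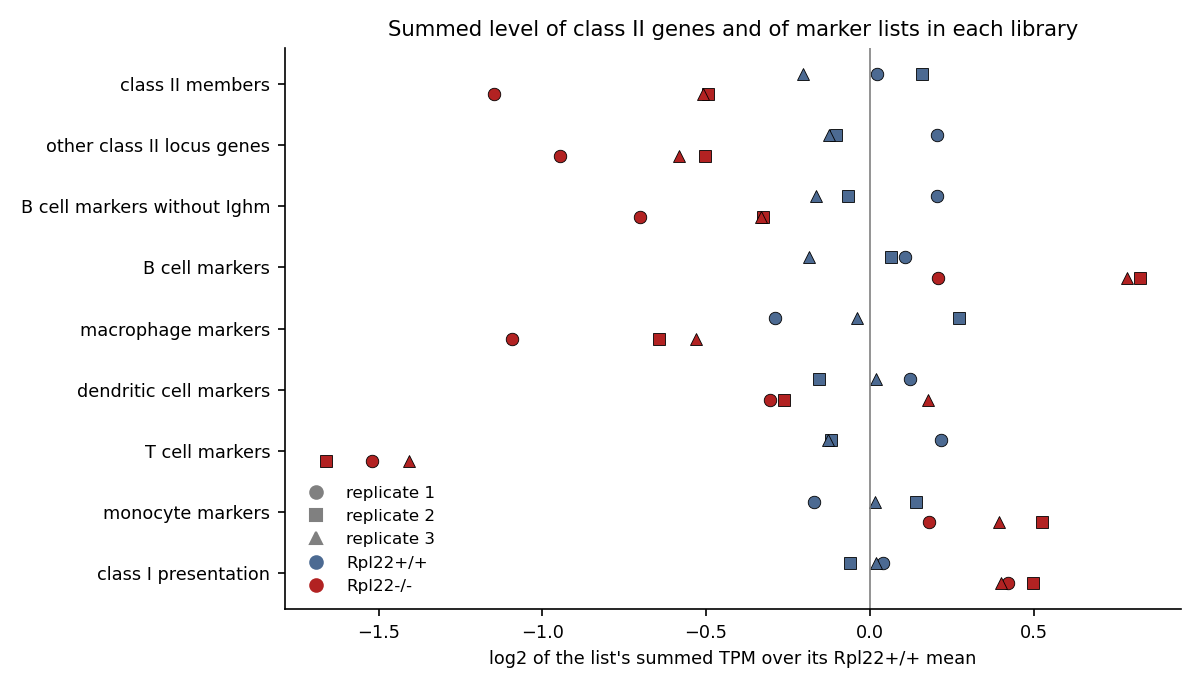
Summed TPM of each list in each library as a log2 ratio to the Rpl22+/+ mean of that list, with circles, squares and triangles for replicates 1, 2 and 3, Rpl22+/+ in blue and Rpl22-/- in red. The class II genes, the other class II locus genes and the B cell markers without Ighm show Rpl22-/- replicate 1 as the lowest library. So do the macrophage and the dendritic cell markers, whereas class I presentation lies higher in each Rpl22-/- library.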

How the data were processed

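Poly(A) RNA of CD11b+Gr1+ splenocytes had been sequenced as stranded paired-end libraries. Per the labels and the study's methods, the authors used Trimmomatic for trimming and Salmon for transcript quantification, whose versions are not given in the sources used here. The authors deposited, per library, estimated counts of reads per transcript, which need not be whole, and TPM, which are scaled for length and keep no depth. A further deposited table holds the authors' comparison by DESeq2 (fold changes and p-values), which was not used. Gene positions on GRCm39 were taken from that table.

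Transcripts were matched to genes through GENCODE vM21 by identifier (136036 of 276623, 49.2%, with 98.0% to 98.1% of reads; Rpl22+/+ libraries held 70202750, 88483406 and 76256404 reads and Rpl22-/- libraries 35828500, 99806050 and 102866127). Estimated counts were summed to genes and rounded. The main test was edgeR's quasi-likelihood F test (edgeR 4.0.16, R 4.3.3) after TMM scaling and the filterByExpr filter, with a genotype term alone and Benjamini-Hochberg adjustment over 16656 genes. SE was derived from the log2 fold change and the F statistic. Transcript shares, over matched transcripts, and TPM ratios were compared by exact permutation tests (scipy 1.17.1).

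Replicate numbers are shared between genotypes in the labels. Over 13202 genes, deviations from the group means correlated at 0.57, 0.715 and 0.129 for the same-numbered pairs 1, 2 and 3 and at −0.657 to 0.43 for the others. Since each same-numbered pair was over 0.1, blocked values are given where they change a result, although Rpl22+/+ replicate 3 correlated better with Rpl22-/- replicate 1 (0.43) than with its own number, and no label says what a number shares.

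Alternatives tried were scaling by DESeq2 size factors or by upper quartile, no composition factor, no filter, a mean of at least 50 counts, DESeq2 1.42.0, limma-voom and limma on log2(TPM + 1) or log2(TPM + 0.1) (limma 3.58.1), a test against a fold of 2, the block, H2-DMb1 and H2-DMb2 summed, and each library left out. Omission of 2 libraries together, and exact sign-flip tests of shares and ratios within pairs of a replicate number, were chosen after seeing the data. Named genes were the members, Rpl22, the called gene with the largest change in each direction and the gene with the highest TPM in each related list, the highest-TPM marker of each marker list and the 5 genes most like the members. Other genes were named after their values were seen. Some listed genes are not reported here by name or in the plots. The members and all lists were chosen with earlier results of these data known.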

Additional observations from a re-analysis of the deposited data

How the results depend on the processing

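All 7 class II genes kept a negative log2 fold change under each of the alternatives run (18 per gene, 19 for H2-DMb1). The number that passed at any size did not hold. With the share of all genes that passed lower in the same fit, it was 1 in the reported fit (13.8%), 3 with DESeq2 size factors (15.5%), 1 with upper-quartile factors (13.4%), 3 with no composition factor (13.3%), 2 with no filter (7.33%), 3 with a mean of at least 50 counts (18.3%), 5 with DESeq2 (16.6%), 2 with limma-voom (13.8%), 4 with limma on log2(TPM + 1) (12.8%), 4 with log2(TPM + 0.1) (12.9%), 0 when tested against a minimum fold of 2 (3.68%), 7 with the replicate block (16.1%) and 3 without Rpl22+/+ replicate 2 and Rpl22-/- replicate 1 together (22.8%). With single libraries left out it was 0 to 2 (8.25% to 19.3%). Ciita passed under 13 of its 18 alternatives, H2-Aa under 10, H2-Eb1 under 9, H2-DMb1 under 4 of 19, H2-DMa under 2, and Cd74 and H2-Ab1 under 1 (the block). The number called, 0, was 1 with a mean of at least 50 counts, against 1193 of 13208 genes called lower. It was 1 with limma-voom, against 1407 of 16656, and 0 to 1 with single libraries left out, against 1177 to 1723 genes. The 4 related genes called lower became 0 in that same minimum-fold test, against 3.68% of all genes. They became 2 to 6 with single libraries left out, against the same 1177 to 1723 genes.

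Over all genes, the 1488 called higher and 1423 called lower became 906 and 699 with limma on log2(TPM + 1) and 692 and 613, of 1305 at any size, in the test against a minimum fold of 2. The 4594 genes that passed at any size became 2622 to 6851 with a library left out, 5631 with the replicate block, and 8171 without both libraries named above. When shares were taken of TPM in place of reads, the change of the upstream Ciita share was −2.07 percentage points (−1.34 by reads), of the middle share −2.79 (−0.58) and of the downstream share 4.86 (1.92). TPM are scaled for length and reads are not, so shares of TPM weigh short transcripts more than shares of reads do. The cause of the differences between fits or between genotypes was not tested. Rpl22-/- replicate 1 held the fewest reads, and the part of depth was not tested.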
